A study of Drosophila melanogaster with 12 samples.

Results

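Gene expression was compared between virgin males of Drosophila melanogaster from populations evolved under monogamy and under polygamy. The 6 male arrays of the study, of 12 in all, were chosen by their titles: monogamy males 1 to 3 and polygamy males 1 to 3 (n = 3 in each regime). Each array held total RNA of whole virgin flies aged 4 days from 1 independent population, after 65 generations under its regime, per the labels. Both regimes shared standard cornmeal medium and a genetic background labelled IV, and the number of flies pooled per sample is not given in the sources used here. Virgin females of the same regimes, numbered 1 to 3 in each, gave the other 6 arrays. Their titles do not say whether a male and a female with the same number come from the same population. With 1 array per population, the spread between populations and the spread between single arrays cannot be told apart.

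Under polygamy, males of the fruit fly compete for mates and their sperm and seminal proteins compete inside the female, and enforced monogamy removes that competition together with choice among males. The testis, which makes sperm, and the accessory glands, which make seminal proteins, hold many transcripts of the adult male that females barely express. In whole flies, fewer cells of a type and less RNA per cell cannot be told apart.

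The deposited values are log2 expression values of 16637 transcripts under FlyBase transcript identifiers, so that a difference of 1 is a doubling. Only 44 could be named, through the synonyms in a table of RefSeq genes (assembly Release 6): 16 belong to a single gene, and 28 are shared by several genes. Of 151 marker genes in 8 lists (testis, accessory gland, egg, immunity, fat body, head, muscle and sex determination), 0 were among the genes so named, so the labelled sex could not be checked on defining markers. Over all transcripts, the male arrays correlated with each other at 0.892 to 0.994 and with the female arrays at 0.541 to 0.763 (Pearson r across transcripts). This sets the arrays labelled male apart from those labelled female but does not show which group is male.

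The first question was how expression in males differs between the regimes. No transcript was shown to differ (0 of 16637, 0%; limma on the 6 male arrays alone, smallest adjusted p = 0.951). At an unadjusted p under 0.05 there were 496 transcripts (2.98%), with 325 higher and 171 lower under monogamy. Their number turned on single arrays: it was 280 without monogamy male 1, 194 without monogamy male 2, 2040 without monogamy male 3 and 162 without polygamy male 1. Their balance did too, with 86 higher and 108 lower without monogamy male 2 and 977 higher and 1063 lower without monogamy male 3. The 3 values of one regime lay wholly above or below those of the other in 1290 transcripts (7.75%), of which 684 were higher and 606 lower under monogamy. Random assignment of the 6 arrays to the regimes would give a share of 0.1 on average. The median absolute difference was 0.23 on the log2 scale, and the median standard error of a difference was 0.29.

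A missed threshold does not show equal expression, so the intervals are given as well. The 95% interval of the difference lay within -1 to 1, less than a doubling either way, in 8569 transcripts (51.5%). Over all transcripts the median interval reached 0.71 to each side of the estimate.

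Differences of at least 1 on the log2 scale were found in 721 transcripts (4.33%), with 221 higher and 500 lower under monogamy. Of these 721, 117 did not overlap between the regimes, and of all 16637 transcripts 1290 (7.75%) did not. The 721 were chosen by the size of their difference, which favours groups without overlap, so the 117 are a description only. The balance towards lower values rested on single arrays: without monogamy male 1, 94 were higher and 60 were lower. The numbers rose to 691 higher and 1662 lower without monogamy male 3, and to 404 and 1394 without polygamy male 2, and it was 182 and 166 without polygamy male 1.

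**Figure D1:**
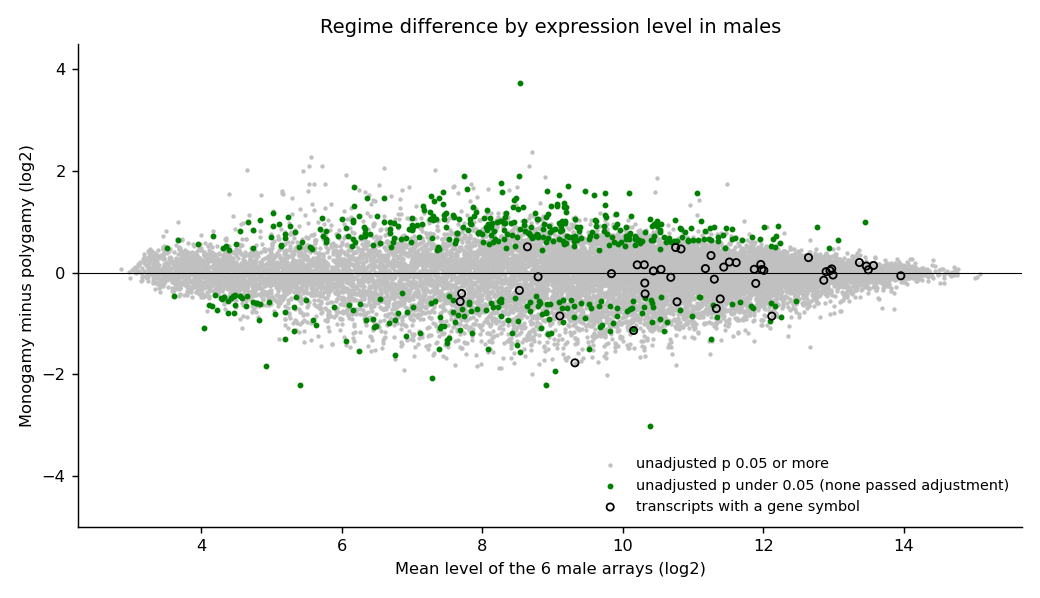
Each point is 1 of the 16637 transcripts, with its mean log2 level over the 6 male arrays on the horizontal axis and monogamy minus polygamy (log2) on the vertical axis. The 496 green points had an unadjusted p under 0.05, 0 passed the adjustment, and open circles mark the 44 transcripts with a gene symbol.

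The transcripts with the smallest unadjusted p in each direction have no gene symbol in the tables used here and did not pass. FBtr0112533 stood at 8.67, 8.68 and 9.31 in monogamy males 1 to 3 and at 12.21, 12.55 and 10.95 in polygamy males 1 to 3. Every monogamy male was therefore below every polygamy male, by a mean difference of -3.02 (SE 0.45, 95% interval -4.12 to -1.91, unadjusted p = 0.000515, adjusted p = 0.951, limma). The females, which had no part in the choice, were split in the same way: FBtr0112533 stood at 8.72, 8.25 and 9.50 in monogamy females 1 to 3 and at 12.00, 11.75 and 12.03 in polygamy females 1 to 3. The regimes did not overlap in either sex, and leaving out each male array in turn gave male differences between -3.49 and -2.70.

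FBtr0081171 stood at 4.55, 4.32 and 4.02 in monogamy males and at 6.51, 6.78 and 6.23 in polygamy males, a difference of -2.21 (SE 0.24, unadjusted p = 7.45e-05, adjusted p = 0.951, limma). In 1 of the 6 males it lay below the 5th percentile of its array. The females overlapped, with 4.03 to 4.85 under monogamy and 4.55, 4.25 and 6.13 under polygamy. FBtr0081171 thus differed from FBtr0112533 in what the other sex showed.

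Towards higher values under monogamy, FBtr0081029 stood at 8.72, 8.97 and 8.59 in monogamy males against 7.89, 7.54 and 7.82 in polygamy males (difference 1.01, SE 0.20, adjusted p = 0.951, limma). FBtr0070166 stood at 9.49, 9.52 and 8.65 against 7.73, 7.60 and 7.94 (difference 1.46, SE 0.29, adjusted p = 0.951, limma). Neither overlapped between the regimes in males. Monogamy females also lay above polygamy females in both: FBtr0081029 was at 8.64 or more against 8.59 or less, and FBtr0070166 was at 8.85 or more against 8.53 or less. The share of all transcripts without overlap in females is not given here. The female values of these transcripts and of FBtr0112533 are therefore a description only.

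To describe the regime difference by expression level, transcripts were ranked by their mean over the 6 male arrays and divided into 10 bins of 1663 or 1664, with bin 1 the lowest. No level stood out by a shift between the regimes. The median difference within a bin lay between -0.03 in bin 2 and 0.04 in bin 8, with 0.01 in bin 1 and 0.01 in bin 10. Leaving out 1 array at a time moved it by more than it varied between bins: from -0.059 to 0.047 in bin 1, from -0.047 to 0.13 in bin 4 and from -0.023 to 0.060 in bin 10. The mean level of bin 1 was 4.37, 4.20 and 4.17 in monogamy males 1 to 3 and 4.26, 4.27 and 4.21 in polygamy males 1 to 3, so the regimes overlapped. In bin 10 it was 13.29, 13.35 and 13.27 against 13.27, 13.35 and 13.31. Over the 10 bins the unadjusted p of a two-sided exact permutation test over the arrays was 0.2 or higher, where 0.1 is the smallest that 3 arrays against 3 can give, and the adjusted p was 0.875 or higher.

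What changed with level was the size of the differences in either direction and the spread behind them. The median absolute difference was 0.19 in bin 1, rose to 0.39 in bin 3 and 0.40 in bin 4 (mean levels of 6.94 to 9.31), and was 0.09 in bin 10. The median standard error followed it, with 0.23 in bin 1, 0.43 in bin 3, 0.42 in bin 4 and 0.19 in bin 10. Differences of at least 1 were found in 183 transcripts of bin 3 and 165 of bin 4, against 18 of bin 1 and 0 of bin 10.

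Intervals were narrow at both ends of the range of levels and wide in between. The 95% interval lay within -1 to 1 for 71.1% of transcripts in bin 1, 22.4% in bin 4, 69.5% in bin 8 and 93.4% in bin 10. Bin 1 held mean levels of 2.86 to 5.21, at the low end of the male arrays, whose 5th percentiles were 4.14 to 4.23. Its narrow intervals bound the measured values only. Without any regime difference, unadjusted p-values under 0.05 would make up a share of 0.05 over all transcripts. They came to 6.31% in each of bins 3 and 4 and to 0.24% in bin 10, against 2.98% over all bins. The fit drew the variance of each transcript towards 1 value for all levels (SD 0.32). This raises p-values where spread is low and lowers them where it is high, so the shares of single bins depend on it. Shares by bin from a fit with a trend by level are not given here. In bin 1, 21 of the 52 transcripts at an unadjusted p under 0.05 were higher under monogamy. In bins 2 to 10 the higher ones were in the majority in each bin, with 73 of 105 in bin 4 and 4 of 4 in bin 10. The overall balance depended on monogamy males 2 and 3, and that of single bins with an array left out is not given here. Transcripts without overlap made up 11.5% of bin 1, of which 7.04 percentage points were lower under monogamy, and 5.41% of bin 10, against 7.75% over all bins. Random assignment of the arrays would give a share of 0.1 in any bin on average.

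**Figure D2:**
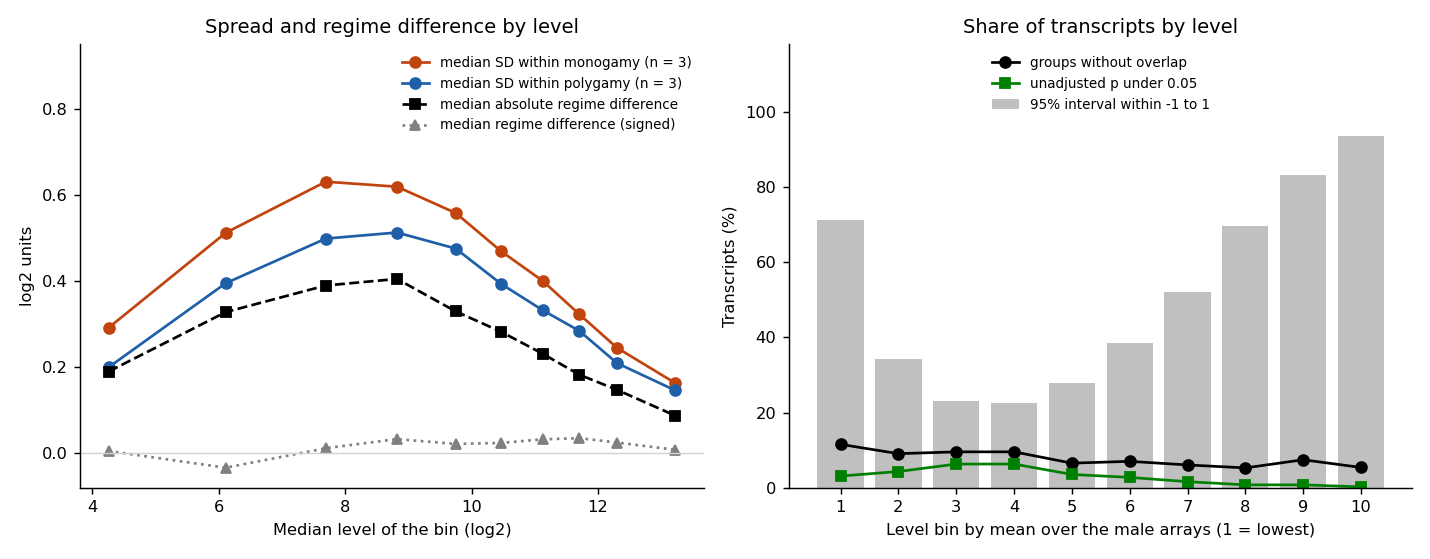
Left, for each of the 10 level bins at its median log2 level, the median SD within each regime (n = 3), the median absolute regime difference and the median signed difference, in log2 units. Right, the percent of transcripts per bin whose 95% interval lay within -1 to 1 (bars), whose regimes did not overlap and whose unadjusted p was under 0.05. Spread and absolute difference peaked together in bins 3 and 4, and with all 6 arrays the signed difference stayed between -0.03 and 0.04.

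The second question was how the populations of a regime vary among themselves. The most alike arrays came from opposite regimes: monogamy male 3 and polygamy male 3 differed by a median of 0.14 per transcript, and monogamy male 3 and polygamy male 1 by 0.15. Among polygamy males, 1 and 3 differed by 0.18, while polygamy male 2 differed from them by 0.49 and 0.46. Among monogamy males, 1 and 2 differed by 0.38, 2 and 3 by 0.37, and 1 and 3 by 0.67. The 3 pairs within monogamy thus had a median of 0.38, the 3 pairs within polygamy 0.46 and the 9 pairs between regimes 0.38.

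By correlation, each of the 6 males was closest to a male of the other regime, and by median difference 5 of 6 were. By correlation this held for 3 of the remaining 5 without monogamy male 3, for 4 of 5 without polygamy male 2 and for 5 of 5 without any one of the others. The exception was monogamy male 1, which differed from monogamy male 2 by 0.378 and from polygamy male 2 by 0.379. Each array had 3 arrays of the other regime and 2 of its own to be closest to. Within single level bins, 3 to 6 of the 6 arrays were closest by correlation to the other regime. The regime held 17.5% of the sum of squares over all transcripts, and it has 1 of the 5 degrees of freedom among arrays, which is 20%. The share was 41.8% without monogamy male 3, 34.5% without polygamy male 2, and 12% without monogamy male 1. With an array left out, the regime has a larger part of the degrees of freedom, so 20% is not the reference for these shares. In every level bin its share with all 6 arrays lay between 16.1% and 19.9%.

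A single axis held most of the variation among males. The first principal component took 76.8% of the variance, the second 12.3% and the third 6.23%. The scores on the first were 0.80 in monogamy male 1, 0.34 in polygamy male 2, 0.16 in monogamy male 2, -0.39 in polygamy male 3, -0.43 in monogamy male 3 and -0.48 in polygamy male 1. Arrays of both regimes lay on both sides of 0, and the scores were not shown to differ between the regimes (means 0.17 and -0.17, exact permutation p = 0.6, n = 3 each). The mean correlation of an array with the other 5 was 0.925 in monogamy male 1 and 0.958 to 0.969 in the others, and it was not shown to differ between the regimes either (exact permutation p = 0.9, n = 3 each).

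**Figure D3:**
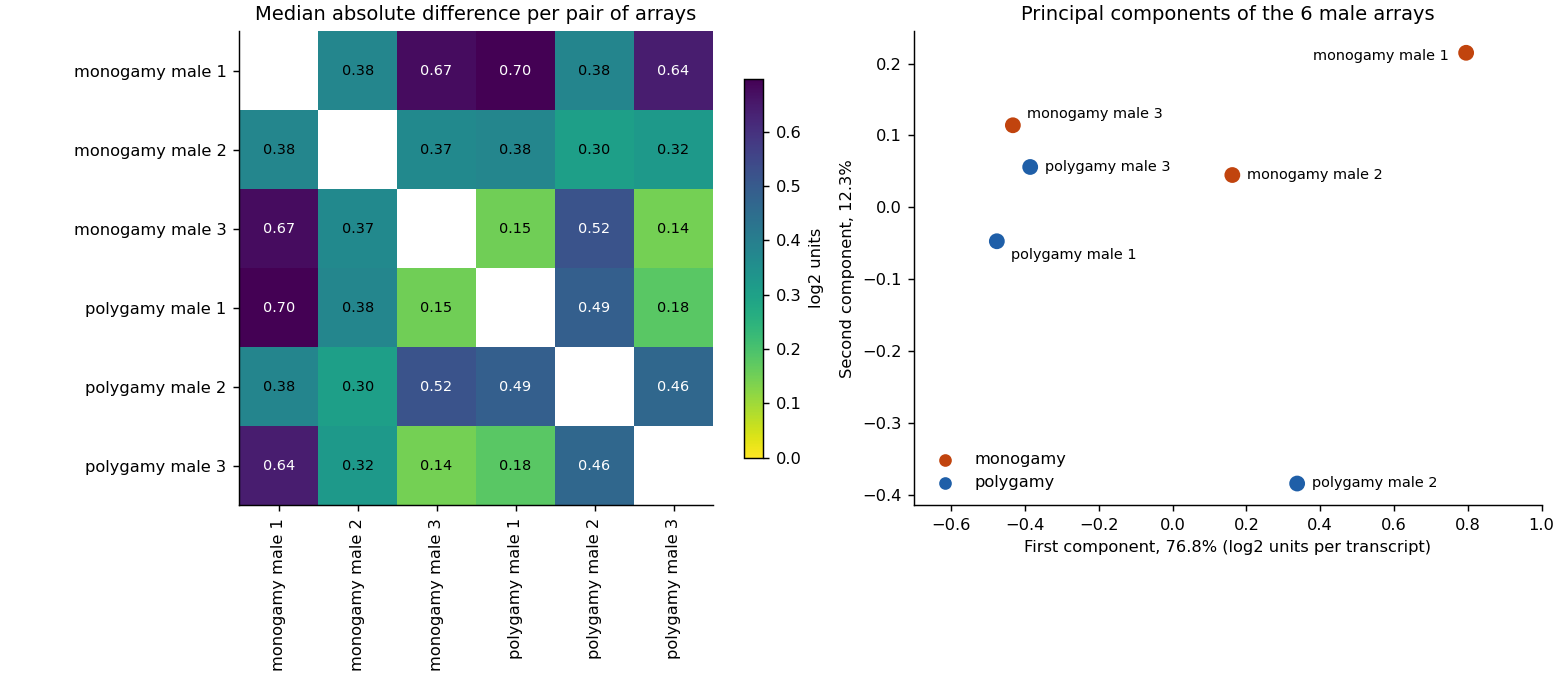
Left, the median absolute difference per transcript (log2 units) of each pair of male arrays. Right, the scores of the 6 males on the first and second principal components (76.8% and 12.3% of the variance). Monogamy male 3 lies with polygamy males 1 and 3, at 0.14 to 0.18, and monogamy male 1 lies at the end of the first component.

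Per transcript, the SD over the 3 populations had a median of 0.38 under monogamy and 0.31 under polygamy, a ratio of 1.22, and the monogamy SD was the larger in 61.7% of transcripts. An SD over 1 was found in 1928 transcripts (11.6%) under monogamy and in 984 (5.91%) under polygamy. The spread depended on level in both regimes, from 0.29 and 0.20 in bin 1 to 0.63 and 0.50 in bin 3 and 0.16 and 0.15 in bin 10. The monogamy median was the larger in each of the 10 bins, by a ratio of 1.46 in bin 1 and 1.12 in bin 10.

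The order of the regimes in spread turned on single populations. Without monogamy male 1 the monogamy median was 0.26 and the ratio 0.84, without monogamy male 3 the ratio was 0.86, and without polygamy male 2 the polygamy median was 0.125 and the ratio 3.02. The deviation of each array from the median of the other 5 had a median of 0.58, 0.27 and 0.29 in monogamy males 1 to 3 and of 0.30, 0.42 and 0.25 in polygamy males 1 to 3. These overlapped between the regimes and were not shown to differ (exact permutation p = 0.7, n = 3 each, with an adjusted p of 0.9 over 4 such array measures).

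Transcripts that females express more than males were highest in monogamy male 1. For this description, chosen with the values known and so given without a test, 300 transcripts were taken with a mean over 11 in females and under 9 in males. Their mean level was 9.31, 7.37 and 7.38 in monogamy males 1 to 3 and 7.26, 7.93 and 7.31 in polygamy males 1 to 3, against 11.72 in females. Monogamy male 1 was the highest and polygamy male 2 the next, and the other males lay within 7.26 to 7.38. Their median regime difference was 0.49, and -0.13 without monogamy male 1.

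Transcripts largely limited to males went the other way in the same array. The 1171 transcripts with a mean over 9 in males and under 7 in females had mean levels of 10.54, 11.07 and 11.25 in monogamy males 1 to 3 and of 11.36, 11.26 and 11.26 in polygamy males 1 to 3. Every monogamy male was below every polygamy male, monogamy male 3 by less than 0.01, and monogamy male 1 was the lowest. The median regime difference of these transcripts was -0.21, and -0.11 without monogamy male 1. Unadjusted p-values under 0.05 came to 0.77% of them, against 2.98% of all transcripts, and 0 passed the adjustment. The 4340 transcripts above 11 in both sexes had means of 12.27 to 12.38 in monogamy males and of 12.27 to 12.37 in polygamy males. No testis, accessory gland or egg marker had a symbol here, so the part of those tissues in these shifts was not tested.

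The first component of the males was followed into the females, whose arrays had no part in it. The 500 transcripts that rose most along the component had a median level of 10.75 in females and 8.22 in males. Monogamy males 1 and 2 and polygamy male 2 lie towards that end. Their mean in monogamy males 1 to 3 was 9.78, 8.04 and 7.32 and in polygamy males 1 to 3 it was 7.24, 8.54 and 7.31, so the regimes overlapped in males, as the scores do. In females the same set stood at 11.23, 10.78 and 10.78 under monogamy and at 10.04, 10.34 and 9.63 under polygamy. The regimes did not overlap in females.

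The 500 transcripts at the opposite end behaved as the mirror image. Their means were 6.67, 8.13 and 10.23 in monogamy males 1 to 3 and 10.39, 7.81 and 10.07 in polygamy males 1 to 3. Monogamy females stood at 6.52, 7.34 and 7.33 and polygamy females at 8.97, 8.26 and 9.57. Here too males overlapped between the regimes and females did not, and the same held with 200 or 1000 transcripts at each end. These female values are a description, without a test and without other sets of equal size for comparison. Polygamy female 3 lay farthest from the monogamy females at both ends, and polygamy females 1 and 2 lay beyond them as well. Whether the regime difference differs between males and females was tested last, and no transcript passed (0 of 16637, 0%, limma interaction over 12 arrays, 593 at an unadjusted p under 0.05) in the fit without a population term. With a random block that took same-numbered males and females of a regime as 1 population, 1 transcript passed (FBtr0087767, adjusted p = 0.0399, limma). Deviations from the group mean correlated between these males and females at 0.53, -0.07 and 0.40 in monogamy 1 to 3. In polygamy 1 to 3 they correlated at 0.09, 0.07 and -0.18. FBtr0087767 stood at 12.83 to 13.14 in all 6 males, at 5.68, 5.85 and 6.28 in monogamy females 1 to 3 and at 8.88, 8.72 and 9.18 in polygamy females 1 to 3. Its regime difference thus lay in the females, and in males it was -0.05.

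**Figure D4:**
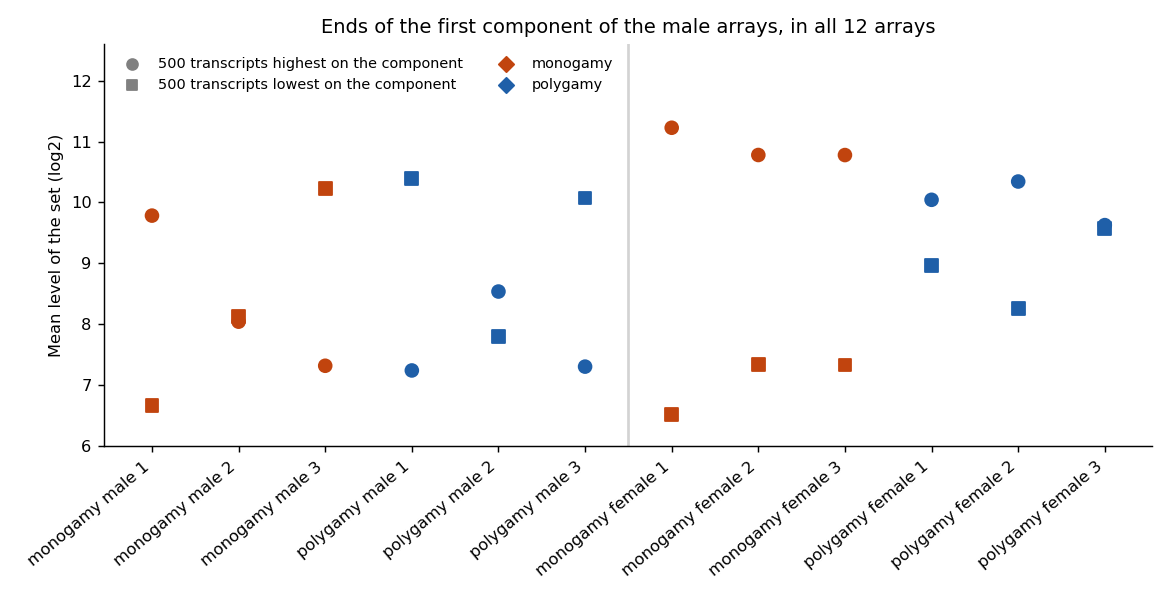
The mean log2 level, in each of the 12 arrays, of the 500 transcripts at either end of the first component of the 6 male arrays, coloured by regime. In males the regimes overlap in both sets, and in females the monogamy arrays lie above the polygamy arrays in one set (10.78 or more against 10.34 or less) and below them in the other (7.34 or less against 8.26 or more).

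Of the 44 transcripts with a gene symbol, 0 passed the adjustment (0% of all transcripts did) and 0 had an unadjusted p under 0.05 (2.98% of all). By sign, 24 lay higher and 20 lower under monogamy, with a median difference of 0.04 against 0.02 over all transcripts. A single one, 2.27% of the 44, did not overlap between the regimes, against 7.75% of all. Most were abundant: 24 lay in the upper tercile of levels, 16 in the middle and 4 in the lower. The value of a transcript shared by several genes cannot be assigned to any of them.

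The transcript without overlap was that of CG12016 and Dpm2, a subunit of the enzyme that makes dolichol phosphate mannose for glycoprotein synthesis. It stood at 11.54, 11.44 and 11.30 in monogamy males 1 to 3 and at 11.06, 10.99 and 11.22 in polygamy males 1 to 3. The difference was 0.34 (SE 0.17, 95% interval -0.09 to 0.76, adjusted p = 0.951, limma), so the interval included 0. The other transcripts of glycolipid anchor synthesis were shared by PIG-M and by PIG-P, both needed to build the anchor that tethers proteins to the cell surface. They differed by -0.21 and -0.13 with overlap.

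The largest difference among named transcripts was that of sle, which encodes a nucleolar protein first known from the development of the brain. It stood at 6.86, 7.60 and 10.83 in monogamy males 1 to 3 and at 11.16, 8.16 and 11.30 in polygamy males 1 to 3. The low arrays were monogamy males 1 and 2 and polygamy male 2, so both regimes held low and high populations. Its difference of -1.77 (95% interval -4.93 to 1.38) was smaller than the SD within monogamy, 2.11, and of the same size as that within polygamy, 1.77. Without monogamy male 1 it was -0.99, and without monogamy male 3 it was -2.98.

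Among 5 transcripts of the RNA-making machinery, 1 followed the order of sle and the other 4 ran the opposite way. That of CG42516 and Pbp49, a subunit of the complex that starts transcription of small nuclear RNA genes, stood at 8.47, 9.02 and 11.27 in monogamy males and at 11.39, 9.60 and 11.18 in polygamy males. Again monogamy males 1 and 2 and polygamy male 2 were the low arrays, and the difference of -1.14 had an interval of -3.19 to 0.91. That of Polr3K, a subunit of RNA polymerase III, and Tcs1 was highest in monogamy male 1 (11.82) and lowest in polygamy male 1 (10.23), with a difference of 0.47. The transcripts of Tfb5, a subunit of the general factor TFIIH, of Mettl5, an enzyme that methylates ribosomal RNA, and of Rpp14a differed by -0.20, 0.20 and 0.08. Monogamy males 1 and 2 and polygamy male 2 were the high arrays in these 3, as in that of Polr3K and Tcs1. All 5 of this group overlapped between the regimes.

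Among 6 transcripts of chromatin, telomeres and DNA damage, differences ran from -0.35 to 0.51 and all overlapped. SuUR, which slows replication of heterochromatin, stood at 7.46, 8.13 and 9.47 in monogamy males and at 9.23, 7.42 and 9.47 in polygamy males. Rad1, a clamp protein of the DNA damage checkpoint, shares its transcript with Sws1, which stood at 10.10, 8.82 and 7.77 against 7.77, 9.34 and 8.05. The arrays that were low for SuUR were the high ones for Rad1 and Sws1. The transcript of moi, which caps telomeres, and Tgs1, an enzyme of small nuclear RNA caps, had the smallest difference among named transcripts of the middle tercile, -0.02, between 9.83 ± 0.34 and 9.85 ± 0.33 (SD, n = 3 each). HDAC3, a histone deacetylase, kis, a chromatin remodeller, and His4r, a histone, differed by 0.21, 0.04 and 0.06.

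Of the 4 transcripts of protein modification and turnover, those of the ubiquitin system ranged from steady to very variable. Uba1, which activates ubiquitin, had a range of 0.46 over the 6 males. By contrast rdx, an adaptor that brings targets to a ubiquitin ligase, stood at 9.58, 10.38 and 11.96 in monogamy males and at 11.60, 9.05 and 11.54 in polygamy males. Its difference was only -0.09, with SDs of 1.21 and 1.45. The transcript of lmgA and lmgB, the locus of a subunit of the anaphase-promoting complex, stood at 5.74, 7.91 and 8.55 against 8.37, 6.69 and 8.84. Among named transcripts it had one of the 3 largest SDs in either regime, 1.47 and 1.13, and its difference was -0.57. The transcript of vnc, an enzyme that acetylates protein ends, differed by 0.07.

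Mitochondrial and cofactor transcripts held both a variable member and steady ones. The transcript of CG42497 and Tim10, a chaperone of protein import into mitochondria, stood at 10.69, 11.65 and 12.75 in monogamy males and at 12.95, 12.09 and 12.62 in polygamy males. Monogamy male 1 was the lowest, and the difference of -0.86 (95% interval -2.18 to 0.47) was -0.35 without it. The transcripts of ND-MNLL, a subunit of respiratory complex I, and Ppcdc, an enzyme of coenzyme A synthesis, differed by -0.15 and -0.05, with ranges of 0.39 and 0.25. Those of Mocs2A and Mocs2B, which make the molybdenum cofactor, and of Mvk, mevalonate kinase, differed by -0.41 and 0.15.

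Transcripts of nutrient handling and of tissue structure overlapped between the regimes throughout. Fatp1, a fatty acid transporter, differed by 0.13, mio and Wdr24, of a complex that relays nutrient state to growth signalling, by 0.06 and -0.08, and NaPi-III, a phosphate transporter, by -0.42. LanA, a laminin chain of basement membranes, had a range of 2.37, with 7.63 in monogamy male 1 and 10.01 in polygamy male 3, and differed by -0.85. The spectrin alpha-Spec had a range of 0.25 and differed by 0.11.

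Among 15 named transcripts of other or unstated role, differences ran from that of sle to 0.50 for CG32573 and CG42512. CG31178, which was lowest in monogamy male 1, stood at 9.50, 11.39 and 12.05 in monogamy males and at 12.03, 11.09 and 11.94 in polygamy males. Its difference of -0.71 had an interval of -2.36 to 0.95 and was 0.03 without monogamy male 1. The transcript of CG42375 and CG9288, with 12.91 ± 0.15 and 12.89 ± 0.15 (SD, n = 3 each), had the smallest difference among named transcripts of the upper tercile, 0.02. The SD was larger under monogamy in 29 of the 44 named transcripts, against 61.7% of all transcripts, with the dependence on single arrays given above.

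**Figure D5:**
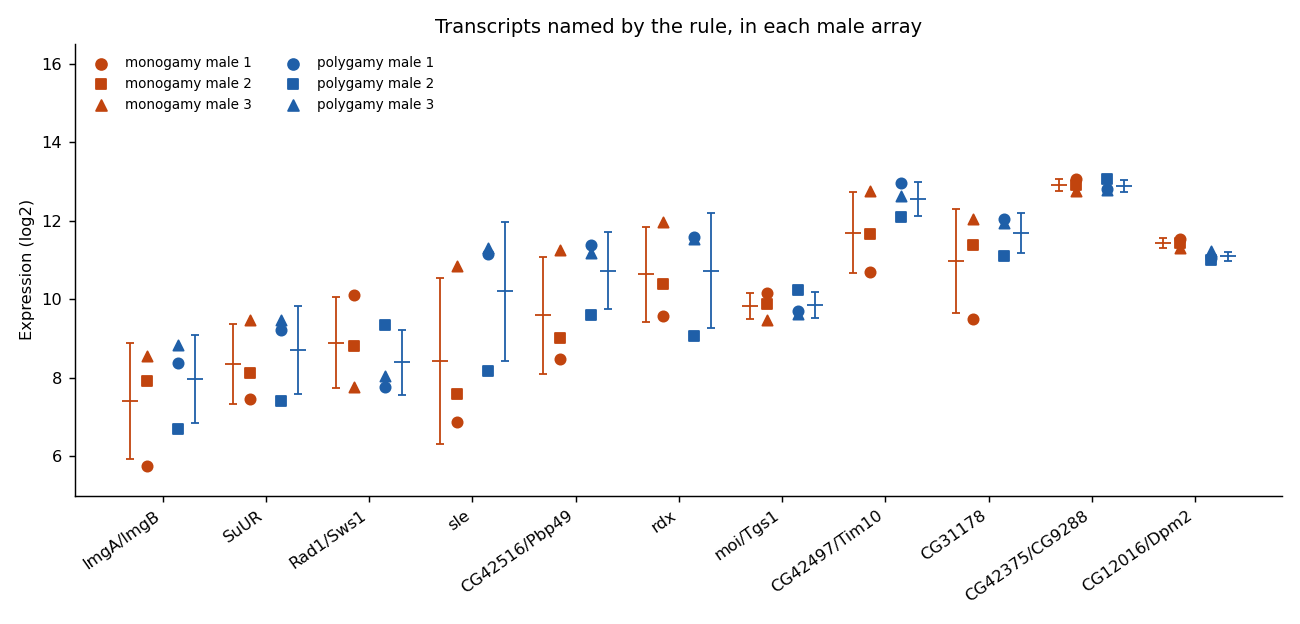
The log2 level in each male array of the 11 named transcripts given by the rule, ordered by level tercile and difference, with monogamy in orange and polygamy in blue and the mean with SD (n = 3) beside each regime. In sle, CG42516/Pbp49, rdx, SuUR, lmgA/lmgB, CG42497/Tim10 and CG31178, monogamy males 1 and 2 and polygamy male 2 lie below the other 3 males. In Rad1/Sws1, moi/Tgs1 and CG42375/CG9288 they lie above them, and CG12016/Dpm2 shows neither order.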

How the data were processed

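Whole virgin flies were profiled on single-colour NimbleGen arrays (Cy3), per the labels. Each deposited value is the log2 level of 1 transcript on 1 array, which the authors obtained with RMA according to the submitters' processing notes. Which arrays were normalized together, the annotation release and the RMA version: not given in the sources used here. No filter or further normalization was applied, and arrays have no read depth: their number limits the precision.

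Gene symbols came from exact transcript identifiers in a RefSeq table of Release 6. Males were fitted alone in R 4.3.3 with limma 3.58.1 (lmFit, eBayes; adjusted p by Benjamini-Hochberg over 16637 transcripts, threshold 0.05), without a block, and tested on simulated data. Values per array were compared with two-sided exact permutation tests. The male arrays of the regimes share replicate numbers but come from different populations, so they were not treated as paired. Members and lists were chosen with earlier results of these data known.

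Named were transcripts with a symbol that did not overlap (up to 8 per direction, by size), in each tercile of level the 2 largest differences and the smallest, and the 3 largest SDs per regime, plus 2 unnamed transcripts per direction. Others among the 44 were named after their values were seen, by role. Alternatives were quantile normalization, centring on the median, cyclic loess, leaving out the dimmest 25%, raising values below the 5th percentile, other eBayes settings, a replicate block (statmod 1.5.0 for the interaction), all 12 arrays in 1 fit, other bins and leaving out each array. Counts of differences of at least 1, and the component's ends in females, were added after the data were seen.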

Additional observations from a re-analysis of the deposited data

Results flagged for a closer look

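For 35 measures with a value in each of the 6 males, the gap between an extreme male and its neighbour was divided by the whole range and held against Dixon's 95% limit. In 5 measures a male exceeded it. About 1 in 20 would by chance, and the measures share their arrays, so they are not independent. The sets of transcripts by level in both sexes were chosen with the values known. That rate does not hold for them, and their values are a description. Monogamy male 1 stood apart in its mean correlation with the other males (0.925), in the transcripts above 9 in males and below 7 in females (10.54) and in those high in females and below 9 in males (9.31). Monogamy male 2 stood apart on the third principal component (-0.29). Polygamy male 1 stood apart in the transcripts below 7 in both sexes (4.79, against 4.71 to 4.74 in the others). Groups of 3 are too small for the same rule within a regime.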

How the results depend on the processing

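No transcript passed in males under any alternative run (0, limma), nor at an adjusted p under 0.1; the smallest adjusted p was 0.395, without monogamy male 3. The 496 transcripts at an unadjusted p under 0.05 became 232 with the replicate block and 220 with all 12 arrays in 1 fit, and 162 to 2040 when each array was left out in turn, the latter without monogamy male 3 and the former without polygamy male 1. The percent without overlap was then 10.5 to 29.9, and 3 arrays against 2 overlap less by construction. With bins by the female mean, the median difference was -0.083 in the lowest bin and 0.049 in the highest. Leaving out 1 array moved it from -0.059 to 0.047 in bin 1, from -0.047 to 0.13 in bin 4 and from -0.023 to 0.060 in bin 10. The median SD under polygamy was 0.125 to 0.345 and the SD ratio 0.84 to 3.02. With same-numbered males and females of a regime as a random block, the interaction of sex and regime passed in 1 transcript (FBtr0087767, adjusted p = 0.0399, limma, seen after the fact). Without the block 0 passed. Same-numbered males of the 2 regimes deviated together at -0.77 to 0.61, and 2 of 6 arrays correlated best with their own number. With 3 arrays a regime, this cannot show whether same-numbered males shared any processing. The replicate block changed no other call. Over 15 transcripts and 193 values under alternatives, 177 kept their sign. The difference of moi and Tgs1 turned to 0.0046 after quantile normalization and to 0.0012 after centring. Leaving out 1 array in turn gave -0.18 to 0.17 for it, -1.21 to 0.26 for lmgA and lmgB, -0.99 to 0.10 for SuUR, -0.094 to 1.07 for Rad1 and Sws1, -0.93 to 0.44 for rdx, -1.24 to 0.032 for CG31178 and -0.055 to 0.10 for CG42375 and CG9288. The cause was not tested. With 3 arrays a regime, intervals were widest in level bins 3 and 4.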
